A study of Caenorhabditis elegans with 2 samples.

Results

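Translation factors and aminoacyl-tRNA synthetases were examined as possible binding sites of PAG-3 in late embryos of Caenorhabditis elegans. Aminoacyl-tRNA synthetases load each tRNA with its amino acid. Initiation factors (eIF) bring the small ribosomal subunit, the initiator tRNA and the capped mRNA together, and elongation factors (eEF) deliver the loaded tRNAs and move the ribosome along. Animals translate in the cytoplasm and in mitochondria, and many amino acids therefore have a cytoplasmic and a mitochondrial synthetase, both encoded in the nucleus. The set was chosen by gene name in the WBcel235 annotation: names of 1 letter followed by ars-1 or ars-2, and names starting with eif-, eef-, ife-, ifg- or iff-. It held 70 of the 19973 protein-coding genes of the 6 nuclear chromosomes, 31 of them synthetases and 39 translation factors. All 70 had a RefSeq product name. Where that name gave the compartment of a synthetase, as it did for 14, it was the compartment assigned here.

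The data are chromatin immunoprecipitation and sequencing (ChIP-seq) of PAG-3, a GFI-type transcription factor with zinc fingers that is known for its role in forming neurons. Hermaphrodites of strain OP154 (unc-119(ed3) III; wgIs154) stably expressed PAG-3 with a GFP-FLAG tag at its C-terminus, and an anti-GFP antibody was used for the precipitation. What drives the transgene is not given in the sources used here. Whole embryos were used, taken 4 hours after synchronisation by egg bleaching, so a value averages all cells of the animal. There was 1 group of 2 biological replicates, with no other genotype or treatment, so no test between samples could be made.

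For each gene the candidate regions with their summit at most 1000 bp before or 200 bp after a transcript start were collected from the authors' list made on the pooled replicates. This stretch is called the promoter window. Each region carries the authors' signal value, whose scale is not stated, and ranks run from the strongest region (1) to the weakest (21336). A region on the authors' list of peaks past a threshold on the irreproducible discovery rate (IDR) is called an IDR peak. The pooled list is labelled as peaks and background, the input for IDR. A candidate region outside the IDR list may therefore be background and is not taken as a binding site. The deposited −log10 q ran from 0.0177 to 2.61 in the pooled list and from 1.79 to 2.61 among IDR peaks. The IDR list held the 327 strongest pooled regions, the weakest of which had a signal value of 84.0. The summit lay at the centre of the region in 99.9% of pooled regions and 93.9% of IDR peaks, so its position is coarse in these. Coordinates are in ce11, and sequencing depth is unknown because the lists hold no read counts.

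A candidate region lay in the promoter window of 41 of the 70 genes (58.6%), against 6170 of all 19973 protein-coding genes (30.9%). An IDR peak lay there in 5 of the 70 (7.14%), those of ears-2, eif-3.I, eef-1A.2, eif-3.B and eif-3.E, against 222 of all genes (1.11%). For 7 of the 70 (10.0%) the strongest region was among the 1000 strongest of the pooled list, against 2.56% of all genes. The 31 synthetases contributed 15 genes with a region and 1 IDR peak, and the 39 translation factors 26 genes with a region and 4 IDR peaks. Most regions of the set were nonetheless of ordinary strength: among genes with a region, the median signal value was 35.5 over the 41 members and 34.3 over all genes. Above the median of all genes were 22 of the 41, and 18 ranked beyond 10000.

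Genes of the cytoplasmic ribosome had shares close to those of the set, and those of the mitochondrial ribosome lay between the set and all genes. A candidate region was found at 47 of 78 cytoplasmic ribosomal protein genes (60.3%) and at 34 of 70 mitochondrial ones (48.6%). IDR peaks lay at 6 of 78 (7.69%) and at 3 of 70 (4.29%). The differences between these gene sets were not tested.

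**Figure D1:**
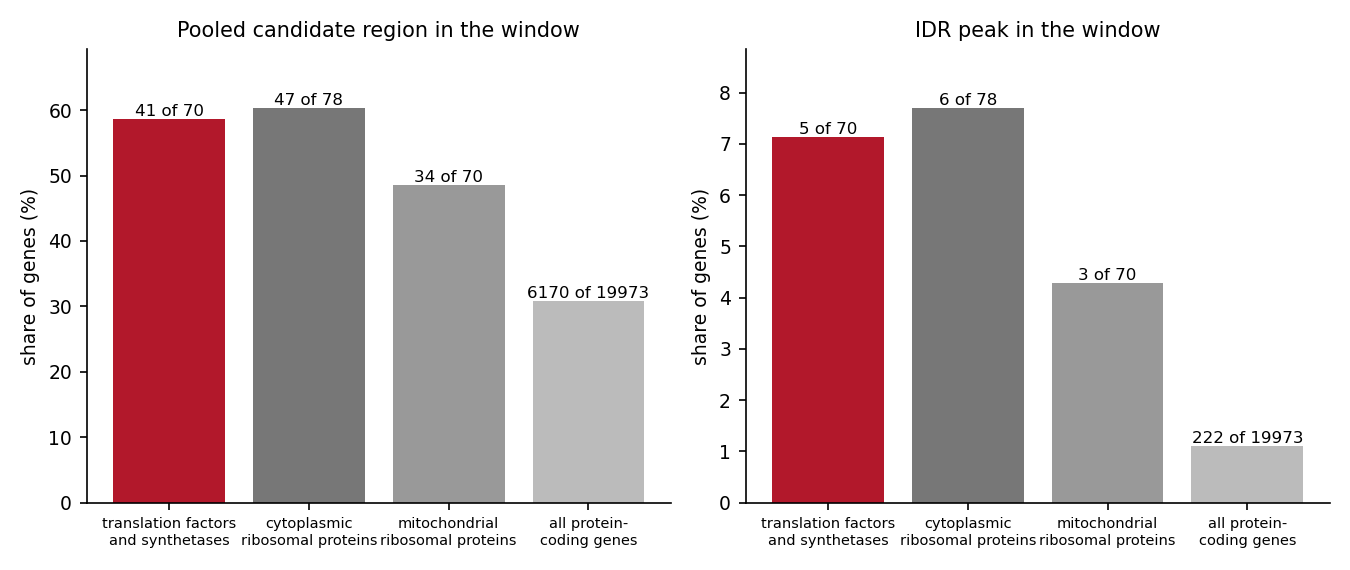
Share of genes, in percent, with a pooled candidate region (left) and with an IDR peak (right) in the promoter window, for translation factors and synthetases, cytoplasmic ribosomal protein genes, mitochondrial ribosomal protein genes and all protein-coding genes. The set lies at 58.6% and 7.14%, against 30.9% and 1.11% of all genes.

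The promoters of the set differed from those of other genes in measures that can move these shares. The 70 genes had 1.81 annotated transcript starts on average, against 1.47 over all protein-coding genes, and a mean promoter window of 1542 bp, against 1453 bp. With the outermost start of each gene only, a candidate region lay at 51.4% of the set and 27.4% of all genes. Of the 41 strongest regions, 19 (46.3%) also lay in the window of another protein-coding gene, against 27.8% of those of all genes. The nearest transcript start belonged to the member itself for 30 of the 41 and to another gene for 11. No member region had a tRNA, snoRNA or snRNA gene within 100 bp of its summit. The 52 member regions are too few to set this against the 1.66% of the 6729 regions in any promoter window. The part of shared promoters and of the number of starts in these shares was not tested.

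The strongest region of the set by a wide margin was that of ears-2, which encodes the mitochondrial glutamyl-tRNA synthetase. It lay on chromosome IV from 390399 to 390550 and had a signal value of 199 in the pooled list, rank 18. In replicate 1 the signal value was 104 (rank 14) and in replicate 2 it was 93.8 (rank 30), a mean of 99.1 ± 7.47 (SD, n = 2). The deposited −log10 q was 2.61, the highest value of the pooled list, which eif-3.I shared. It was the only member among the 327 strongest regions of each replicate. Its summit, at 390503, was not at the centre of the region. This summit was 35 bp upstream of the ears-2 start and 57 bp upstream of the start of uncp-18, which is transcribed in the opposite direction. Only 91 bp separate these starts, so the region belongs to both genes by position.

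The sequences under the summits of 4 of the 7 strongest members are shown to let their make-up be compared; those of eif-3.I, eif-3.E and eif-3.C, which stand among the 7, are not printed. They run from 50 bp before to 50 bp after the summit and read 5′ to 3′ on the plus strand of WBcel235. Capitals mark the word GCGC, which reads the same on both strands and was chosen after the sequences had been seen. The windows are chrIV:390453-390553 (ears-2), chrX:7823126-7823226 (eef-1A.2), chrII:14795122-14795222 (eif-3.B) and chrX:1103880-1103980 (ife-4).
ears-2: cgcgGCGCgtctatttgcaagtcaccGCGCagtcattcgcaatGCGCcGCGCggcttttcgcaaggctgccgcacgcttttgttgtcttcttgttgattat
eef-1A.2: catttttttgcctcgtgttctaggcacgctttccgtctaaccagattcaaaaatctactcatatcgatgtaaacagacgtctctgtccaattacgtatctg
eif-3.B: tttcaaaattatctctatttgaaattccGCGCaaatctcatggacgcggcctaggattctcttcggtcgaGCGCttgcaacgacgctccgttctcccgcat
ife-4: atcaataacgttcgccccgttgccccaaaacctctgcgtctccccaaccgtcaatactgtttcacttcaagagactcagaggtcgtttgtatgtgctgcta
The ears-2 window held 4 copies of GCGC, the eif-3.B window 2, and the windows of eef-1A.2 and ife-4 none. Those not printed held 2 copies at eif-3.I, 2 at eif-3.E and 3 at eif-3.C, so 5 of the 7 carried the word. Over the 52 member regions, 20 (38.5%) held the word, against 22.6% of the 6729 regions in any promoter window. Among IDR peaks in promoter windows, whose GC content was higher, the share was 49.4%. Because the word was picked from sequences of the set, the shares cannot be weighed against each other.

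AATCAC, the core of the binding site known for GFI proteins, was not found under any of the 5 IDR peaks of the set. These are too few to set against the 5.36% of the 168 IDR peaks in promoter windows that held it. On either strand it occurred in 2 of the 52 member regions (3.85%), against 4.37% of the 6729 promoter-window regions. These 2 were the strongest regions of mars-1 and nars-1, synthetases for methionine and asparagine. The mars-1 window, chrIV:11635745-11635845 on the plus strand, is shown with the word in capitals.
mars-1: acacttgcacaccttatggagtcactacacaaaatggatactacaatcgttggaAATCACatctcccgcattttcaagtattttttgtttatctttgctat
Its region ranked 7895 in the pooled list with a signal value of 35.5 and a −log10 q of 0.182. The word GTTCGANNC, which resembles the B box of tRNA gene promoters, occurred on neither strand in the 52 regions. These are too few to set this against the 1.31% of promoter-window regions that held it. GC content within these windows averaged 48.7% ± 5.79 at the 5 IDR peaks (SD over regions) and 40.9% ± 10.2 at the other 47 regions. The means were 49.0% and 41.8% for IDR peaks and other regions in the promoter windows of all genes.

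The eIF3 complex, the large scaffold that holds initiation factors on the small ribosomal subunit, carried 3 of the 5 IDR peaks. Of its 11 genes in the set, 8 had a candidate region (72.7%), against 30.9% of all genes. For 4 (36.4%) the strongest region was among the 1000 strongest, against 2.56% of all genes. The 3 with an IDR peak made 27.3%, against 1.11% of all genes. These differences were not tested. The 8 signal values ran from 37.9 to 100 with a median of 61.9, and none lay below the median of all genes. Only the names eif-3.B to eif-3.L enter the set. The gene of the largest subunit, egl-45, had a candidate region ranked 12081 with a signal value of 30.6.

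The peak at eif-3.I, a subunit of the scaffold's core, lay on chromosome I from 2487670 to 2488119. Its signal value was 100 in the pooled list (rank 184), 36.1 in replicate 1 (rank 759) and 63.6 in replicate 2 (rank 104). The summit was 509 bp upstream of the start of the shorter transcript and 2034 bp inside the longer one, in an intron. It therefore enters the window through the shorter transcript only. A second region, 199 bp upstream of the longer transcript, had a signal value of 41.3.

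The peak at eif-3.B, a core subunit that other subunits bind, lay on chromosome II from 14794947 to 14795396, 232 bp upstream of a start. Its signal value was 91.3 in the pooled list (rank 250), 48.2 in replicate 1 (rank 226) and 39.0 in replicate 2 (rank 648). The peak at eif-3.E lay on chromosome I from 10642258 to 10642707, 202 bp upstream, and its window is shared with B0511.17. Its signal value was 86.3 in the pooled list (rank 296), 45.7 in replicate 1 (rank 268) and 43.7 in replicate 2 (rank 404). The values of eif-3.E were close in the replicates, whereas eif-3.I was stronger in replicate 2.

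The strongest member outside the IDR list was eif-3.C, another core subunit, with a signal value of 72.8 (rank 558), well below the limit of 84.0. It had 33.1 in replicate 1 (rank 1109) and 42.5 in replicate 2 (rank 459), and its summit was 234 bp upstream of the start. The remaining subunits were weaker. The gene eif-3.G had 51.1 (rank 2227), eif-3.D 42.0 (rank 4479), eif-3.J 41.3 (rank 4745) and eif-3.K 37.9 (rank 6422). No region of replicate 2 matched that of eif-3.D and none of replicate 1 matched that of eif-3.K. The windows of eif-3.F, eif-3.H and eif-3.L held no pooled region. All 8 strongest eIF3 regions had their summit upstream of a start, where only 17.5% of the strongest regions of all genes lay downstream. The nearest start was that of R08D7.4 for eif-3.D and of pqn-68 for eif-3.K, and the member's own for the others. The eif-3.J summit, 965 bp upstream, lay in the 3' UTR of slc-25A46. The word GCGC was held by 7 of the 8, beside 22.6% of promoter-window regions and 49.4% of IDR peaks among them. It was chosen after sequences of the set had been seen, so these shares cannot be weighed against each other.

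**Figure D2:**
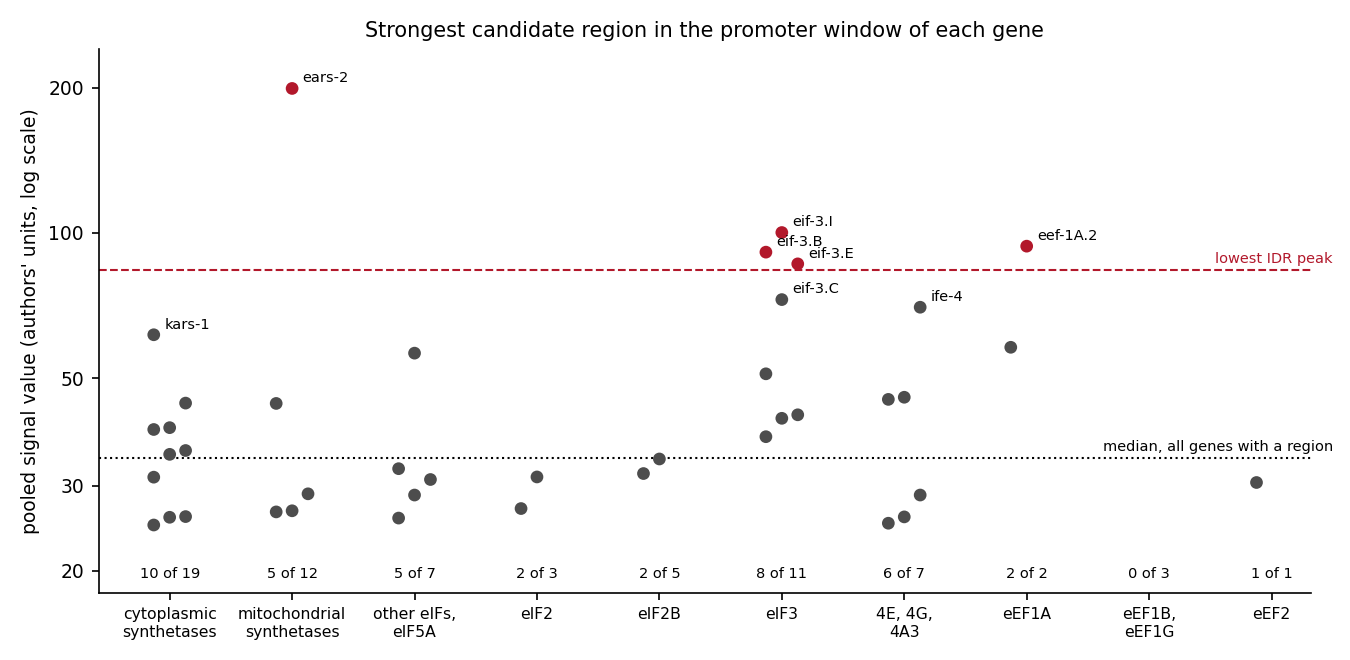
Pooled signal value (authors' units, log scale) of the strongest candidate region of each gene, by group; red points are IDR peaks, and the numbers at the foot give the genes with a region of all genes in the group. The ears-2 point stands at 199, and 3 eIF3 genes and eef-1A.2 lie above the lowest IDR peak (84.0). None of the 19 cytoplasmic synthetases does, too few genes to set against the 1.11% of all genes with an IDR peak.

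Elongation factor eEF1A, which delivers loaded tRNAs to the ribosome, is encoded by a pair of genes, and both had a region. A pair is too few genes to set against the 30.9% of all genes with a region. At eef-1A.2 the IDR peak lay on chromosome X from 7822951 to 7823400, 478 bp upstream of the start. Its signal value was 93.9 in the pooled list (rank 224), 34.8 in replicate 1 (rank 893) and 60.9 in replicate 2 (rank 126). A second, overlapping region 261 bp upstream had 64.4 (rank 912), and both matched the same region in each replicate. At eef-1A.1 the region had 58.0 (rank 1385), with 27.2 in replicate 1 and 26.8 in replicate 2, and the nearest start was that of rfc-4. The genes of the exchange factor of eEF1A, eef-1B.1, eef-1B.2 and eef-1G, had no pooled region, and they too are too few to set against that share. The translocase gene eef-2 had 1, ranked 12210 with a signal value of 30.5, with its summit in the 5' UTR.

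Among the cap-binding and eIF4 genes, 6 of 7 (85.7%) had a region, against 30.9% of all genes. None had an IDR peak, too few genes to set against the 1.11% of all genes. The eIF4E-family gene ife-4 had the strongest, on chromosome X from 1103705 to 1104154, with a signal value of 70.2 (rank 648). It had 28.0 in replicate 1 (rank 2216) and 40.4 in replicate 2 (rank 558). For ife-3 the region in the window had 45.7 (rank 3312), but an IDR peak with a signal value of 95.2 lay on chromosome V from 8678 to 9127. Its summit was 1075 bp upstream, just outside the window. The exon junction helicase gene eif-4A3 had 45.2, while ife-2 had 28.7, ifg-1, which encodes the eIF4G scaffold, 25.8 and ife-1 25.1. The ifg-1 summit lay 937 bp upstream in an intron of M110.3, whose start was the nearest. The window of ife-5 held no pooled region.

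Factors that choose the start codon and supply the initiator tRNA had regions below the median of all genes with a region (34.3) or none. A region lay at 66.7% of the eIF2 genes and 40.0% of the eIF2B genes, against 30.9% of all genes. Of the 3 eIF2 genes, eif-2gamma had a signal value of 31.3 and eif-2beta 26.9, and eif-2alpha had no region. Of the 5 genes of eIF2B, which recharges eIF2 with GTP, eif-2Balpha had 34.1 and eif-2Bgamma 31.8, and the other 3 had none. The scanning factors eif-1 and eif-1.A had 32.5 and 30.9, eif-2D had 28.7, and eif-6, which acts on the large subunit, had 25.7. The nearest start was that of another gene for eif-1 (vps-24), eif-2Balpha (mut-7) and eif-2D (ndub-5). One of the eIF5A genes, iff-2, stood above all these factors with 56.4 (rank 1547), which was 19.1 in replicate 1 (rank 8968) and 35.7 in replicate 2 (rank 902). The other, iff-1, and eif-2A had no pooled region.

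Cytoplasmic and mitochondrial synthetases could not be ordered by how many had a candidate region, since the order turned with the processing, and the only IDR peak was mitochondrial. The cytoplasmic class includes genes that serve both compartments. A candidate region lay at 10 of 19 cytoplasmic synthetase genes (52.6%) and 5 of 12 mitochondrial ones (41.7%), against 30.9% of all genes. An IDR peak lay at 0 of 19 and at 1 of 12, too few genes to set against the 1.11% of all genes. The IDR peak nearest to a cytoplasmic synthetase start was at fars-1, 1396 bp downstream and outside the window, with a signal value of 87.9. The median signal value was 35.1 for the 10 cytoplasmic genes with a region and 28.8 for the 5 mitochondrial ones. With a window of 2000 bp upstream and 500 bp downstream the counts were 12 of 19 cytoplasmic and 9 of 12 mitochondrial genes. The share of all genes was then 46.6%. By the gene of the nearest start, with no limit on distance, the counts were 10 of 19 and 11 of 12. That rule gave a region to 52.3% of all genes, close to the cytoplasmic share. In replicate 1 alone, without replicate 2, the counts were 7 of 19 and 6 of 12, beside 31.6% of all genes. Among amino acids with both genes they were 4 and 4 of 11. Genes are not replicates of a compartment, and the difference was not tested.

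The strongest gene of the cytoplasmic class was kars-1, the only gene for lysine in the set, with a signal value of 61.6 (rank 1104). It had 30.1 in replicate 1 (rank 1640) and 31.5 in replicate 2 (rank 1474). The others with a region were sars-1 (44.4), rars-1 (39.5), tars-1 (39.2), mars-1 (35.5), gars-1 (34.8), nars-1 (31.2), hars-1 (25.9), cars-1 (25.8) and ears-1 (24.9). For tars-1 the nearest start was that of kel-1. The mitochondrial genes beside ears-2 were vars-1 (44.4), yars-2 (28.8), pars-2 (26.6) and aars-1 (26.5). The number in a name does not give the compartment for alanine, where aars-2 is cytoplasmic and aars-1 mitochondrial, and vars-1 was counted as mitochondrial. The class of vars-1, and of the other synthetases whose product name gives no compartment, rests on general knowledge of these genes and not on the annotation. With the class taken from the number alone, a region lay at 12 of 20 cytoplasmic and 3 of 11 mitochondrial genes, beside 30.9% of all genes.

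Of the 11 amino acids with both a cytoplasmic and a mitochondrial gene in the set, only glutamate had a region at both. There, ears-1 had a signal value of 24.9 (rank 20092) and ears-2 had 199. Both genes had no region for aspartate (dars-1 and dars-2), phenylalanine (fars-1 and fars-2), isoleucine (iars-1 and iars-2) and leucine (lars-1 and lars-2). Only the cytoplasmic gene had a region for arginine, asparagine and serine, whose rars-2, nars-2 and sars-2 had none. Only the mitochondrial gene had one for alanine, proline and tyrosine, whose aars-2, pars-1 and yars-1 had none. The cytoplasmic genes qars-1 and wars-1 also had none. In the pairs, the nearest start was that of another gene for the regions of ears-1 (ZC434.3), rars-1 (rpb-8) and nars-1 (nduf-6). It was the synthetase's own for the strongest regions of sars-1, ears-2, aars-1, pars-2 and yars-2. The ears-1 region matched none of replicate 2.

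The replicates matched for the set about as often as for all genes. Of the 41 strongest member regions, 23 (56.1%) overlapped a region of both replicates, 9 only one of replicate 1 and 9 only one of replicate 2. Over all genes with a region, 54.0% overlapped both. Among the 23, replicate 2 gave the better rank for 15 (65.2%), against 53.6% over all genes. Taking the 327 strongest regions of a single replicate in place of the IDR peaks, replicate 1 had ears-2, eif-3.B and eif-3.E, and replicate 2 had ears-2, eef-1A.2 and eif-3.I. Each list thus held 3 members (4.29% of the 70), against 0.971% of all genes in replicate 1 and 1.06% in replicate 2. For 1 member, ears-2, the strongest region was in both lists, as it was for 120 of the 6170 genes with a region. Ranks within 1000 in both replicates were reached by 5 members (12.2% of the 41), against 4.29% of all genes with a region, and these were the 5 with an IDR peak.

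**Figure D3:**
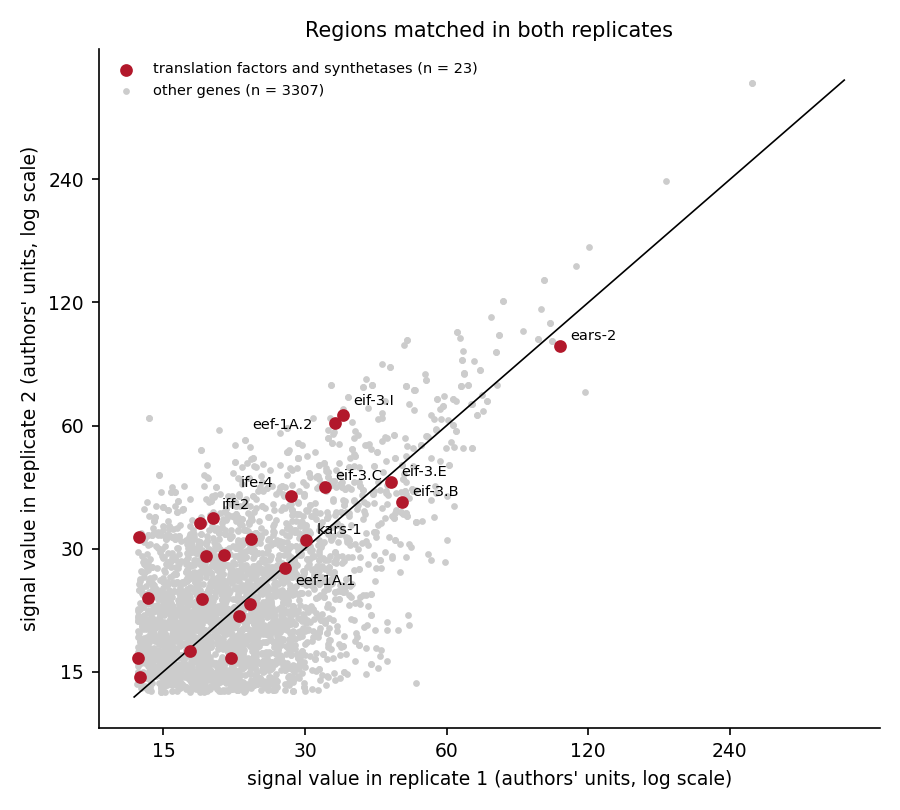
Signal value in replicate 1 (x axis) and replicate 2 (y axis), both in the authors' units on log scales, for the strongest pooled region of each gene where both replicates had a match; red points are the 23 translation factors and synthetases, grey points the other genes, and the line marks equal values. The ears-2 point lies near the line at 104 and 93.8, while eif-3.I and eef-1A.2 lie above it.

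Of the 29 members without a pooled region, 18 had none in the list of either replicate. They were dars-1, dars-2, eef-1B.2, eif-2A, eif-2alpha, eif-2Bdelta, eif-2Bepsilon, eif-3.F, eif-3.L, fars-1, iars-1, iars-2, lars-2, pars-1, qars-1, sars-2, wars-1 and yars-1. The other 11 had a weak region in 1 replicate or, for iff-1, in both. The strongest of these was that of eef-1B.1 in replicate 1, with a signal value of 16.9 (rank 12918).

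The median distance of the strongest summit was 308 bp upstream over the 41 members and 299 bp upstream over all genes with a region. Within 200 bp of the start on either side were 13 of the 41 (31.7%), against 40.2% over all genes. The annotation placed 20 of the 41 summits between genes, 10 in a coding exon, 5 in an intron and 6 in a UTR. The strongest region lay downstream of the start for 6 members (14.6%), against 17.5% over all genes. The highest of these signal values were those of ife-3 (45.7), eif-4A3 (45.2) and vars-1 (44.4), and the others were eef-2 (30.5), aars-1 (26.5) and cars-1 (25.8).

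**Figure D4:**
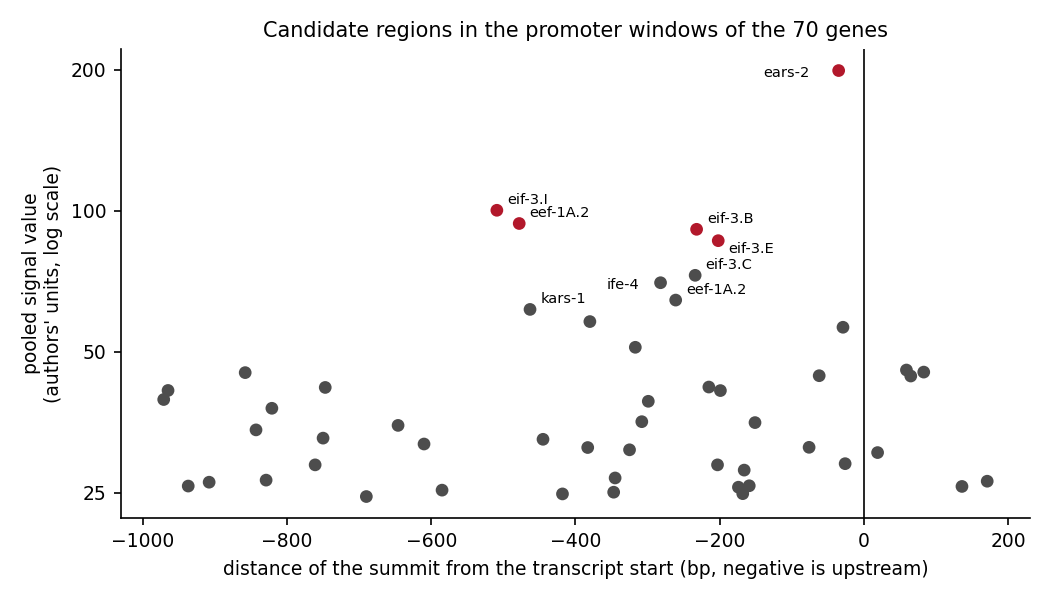
Distance of each summit from the transcript start (x axis, bp, negative upstream) and pooled signal value (y axis, authors' units, log scale) for the 52 candidate regions in the windows of the 70 genes; red points are IDR peaks. All 5 IDR peaks lie upstream, from 35 bp at ears-2 to 509 bp at eif-3.I.

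Other genes of translation that the naming rule leaves out were looked up by symbol. Of 27 symbols listed, 21 were matched to a protein-coding gene, and 17 of these (81.0%) had a candidate region, against 30.9% of all genes. An IDR peak lay at 0 of the 21, too few genes to set against the 1.11% of all genes. The strongest were drr-2, an eIF4H-like factor (57.3, rank 1458), and the poly(A)-binding protein gene pab-2 (49.7, rank 2469). The cytoplasmic release factor genes erfa-3 and erfa-1 had 36.5 and 29.3. The mitochondrial elongation factor genes gfm-1, tufm-1 and tufm-2 had 36.4, 35.1 and 35.6. The windows of pab-1, clu-1, tsfm-1 and fars-3, the last encoding the beta subunit of phenylalanyl-tRNA synthetase, held none.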

How the data were processed

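ChIP-seq of tagged PAG-3 was available as lists of regions for 2 replicates, numbered as in the labels, and for the pooled replicates. Per the file notes, the authors made each list from alignments and a control. The control is not analysed here, and aligner, peak caller and IDR threshold are not given in the sources used here. Each deposited list gives every region a signal value and a q value as −log10, which the authors made. The signal was used to describe and rank regions and was not rescaled. Of the ce10 lists, only the signal values of the IDR list were used.

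Gene names and transcript starts came from Ensembl release 115 (WBcel235), product names and sequence from RefSeq on the same assembly. A pooled region and a replicate region were taken as the same where they shared 1 bp or more, with the strongest partner kept. IDR peaks were found in the pooled list by identical coordinates. Assignment and matching were tested on simulated regions. All results are descriptions, since 1 group of 2 replicates allows no test.

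The members and lists were chosen with earlier results of these data known. Genes are named where they have an IDR peak, are among the 20 members of largest signal or are mitochondrial synthetases, and the others are given within their complex. Python 3.11.15, numpy 2.4.6, pandas 2.3.3 and matplotlib 3.10.9 were used.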

Additional observations from a re-analysis of the deposited data

How the results depend on the processing

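The count of members with a candidate region stayed between 32 and 52 of 70 under all 8 alternatives (38 to 40 with a replicate left out), and its share was above that of all genes each time. The count with an IDR peak was 4 to 6 (5.71% to 8.57%) with other windows, starts and assignment rules, losing eif-3.I or gaining ife-3. The share of all genes was then 0.781% to 1.59%. The count was 3 (4.29%) with either replicate left out, against 1.06% of all genes without replicate 1 and 0.971% without replicate 2. It was 1 (1.43%), ears-2, in the stronger part of the IDR peaks, against 0.591%. With the signal limit of the ce10 IDR list, tried only once the data had been seen, it was 5 (7.14%), against 1.49%. The median signal was 40.3 with 500 bp upstream and 100 bp downstream, against 34.6 over all genes with a region. It was 38.5 with 2000 bp and 500 bp (35.1 over all genes) and 37.9 with regions that overlap the window (34.5). In single replicates, whose scale is lower, it was 21.6 in replicate 2 (19.1 over all genes). In replicate 1 it was 18.5, just below the 18.6 of all genes. Mitochondrial synthetases with a candidate numbered 9 in the widest window, 11 by the gene of the nearest start and 3 when the gene number alone gave the class, and cytoplasmic ones 4 for amino acids with both genes, against 4 mitochondrial. In the widest window the shares were 12 of 19 cytoplasmic and 9 of 12 mitochondrial, the opposite order to the main one. By nearest start they were 10 and 11. The shares of all genes were 46.6% in the widest window and 52.3% by nearest start, against 30.9% in the main setting. The order also turned without replicate 2, with 7 cytoplasmic and 6 mitochondrial genes, beside 31.6% of all genes. Cytoplasmic synthetases had 0 IDR peaks under every alternative, but these genes are too few to set this against the 1.11% of all genes in the main setting. Members matched in both replicates were 21 (51.2%) under a stricter overlap, against 48.7% of all genes with a region. With summits within 100 bp they were 16 (39.0%), against 35.7%. The unknown depth, and a control not analysed here, limit all values.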
